A study of Rattus norvegicus with 20 samples.

Results

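The collagen chain genes of the rat were described in the right ventricle, 6 weeks after pulmonary embolism (PE). A gene was included when the platform annotation gave a probe set (a group of probes for 1 transcript) a single symbol of the form Col, number, a, number. This rule found 41 genes with 58 probe sets, of 14217 genes and 31042 probe sets tested. Where a gene had several probe sets, the one with the highest average log2 signal over all 20 arrays stands for it. The genes were placed in classes from textbook knowledge: 8 fibrillar, 8 basement membrane, 7 network, 6 FACIT (collagens attached to fibrils) and 7 cartilage collagens, with 5 others (Col13a1, Col17a1, Col23a1, Col25a1 and Col26a1).

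Every animal was a male Sprague Dawley rat of about 350 g. PE rats received 2000000 polystyrene microspheres of 25 micron per 100 g body weight through the right jugular vein, in 0.01% Tween-20. Vehicle rats received 0.01% Tween-20 alone, at 0.15 ml per 100 g per the sample labels. After 6 weeks the right ventricle was divided into outflow tract (base) and apex, which gave 4 groups of 5 Affymetrix arrays: PE outflow, PE apex, vehicle outflow and vehicle apex. A protocol field speaks of vehicle for all 20 samples, and the groups follow the titles, which separate PE2.0 from vehicle. The titles number the arrays of a group as biological replicates and name no animals. The p-values measure the spread between these samples, pooled over the 4 groups.

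Collagens are secreted proteins of the extracellular matrix, built from alpha chains that wind into a triple helix. Fibrillar collagens (types I, III and V among them) form the cables that carry tension between muscle bundles, and in the heart they are made mainly by fibroblasts. Types IV, XV and XVIII belong to basement membranes around cardiomyocytes and vessels. Types VI and VIII form filaments and lattices, FACIT collagens decorate the surface of fibrils, and types II, IX, X and XI are best known from cartilage. More fibrillar collagen in a pressure-loaded ventricle is a textbook sign of fibrosis.

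Array medians of the signal ran over 123 to 159. The PE outflow array of replicate 2 stood apart: its mean correlation with its own group was 0.887, against 0.936 to 0.949 for the other PE outflow arrays and 0.968 to 0.982 in the other 3 groups. Its GAPDH 3' to 5' signal ratio, which is higher when RNA is shortened, was 6.12. It also stood apart in cardiomyocyte markers, given below, and the part of either in its collagen values was not tested. That ratio was 1.71, 1.70, 2.20 and 2.34 for PE outflow replicates 1, 3, 4 and 5, and 1.38 to 1.83 on the arrays of the other groups. None of the 7 cardiomyocyte markers measured was at 0 on any array. For 13 of the 41 collagen genes, the mean signal was under the lowest array median in every group, and 3 of these (Col7a1, Col22a1 and Col9a1) are among the genes called higher below.

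In the outflow tract, most collagen genes were higher after PE. The limma model called 29 of 41 higher in PE outflow than in vehicle outflow (70.7%, against 26.3% of all genes) and 1 lower (Col24a1, against 18% of all genes). The other 11 were not called. The log2 fold change was positive for 37 genes (56.9% of all genes), with a median of 1.19, against 0.10 over all genes. On 26 genes every PE outflow array lay above every vehicle outflow array (18.8% of all genes did so), and on 0 genes every one lay below (12.7% of all genes). By class, those called higher were 6 of 8 fibrillar, 7 of 8 basement membrane, 6 of 7 network, 4 of 6 FACIT, 5 of 7 cartilage and 1 of 5 other collagens, and the median log2 fold changes were 1.61, 0.95, 1.34, 1.10, 1.83 and 0.46 in the same order. Fold changes are those of signal + 16. In whole tissue, a larger share of matrix-producing cells and more RNA per cell cannot be told apart. When each array was centred on its median, which set the median log2 fold change of all probe sets at -0.08 instead of 0.05, 26 collagen genes were called higher and 1 lower. When the probe set of each gene was chosen on the vehicle arrays alone, a setting added after seeing the data, 28 were higher and 1 lower, and the call lost was that of Col2a1.

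**Figure D1:**
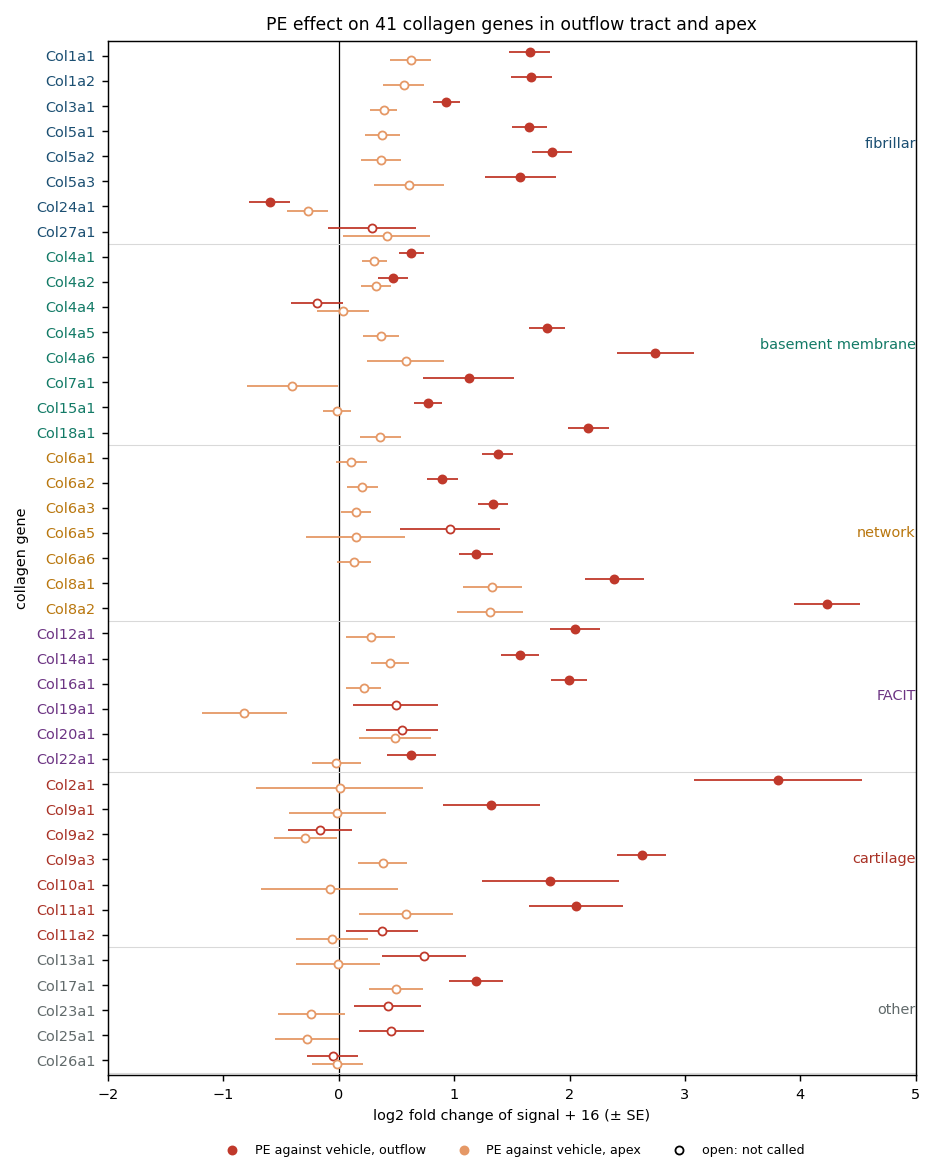
Log2 fold change of signal + 16 (x axis, with the standard error of the model) for 41 collagen genes (y axis, grouped and coloured by class), PE against vehicle in outflow tract (red) and apex (orange). Filled points were called at an adjusted p under 0.05: 29 higher and 1 lower in the outflow tract, 0 in the apex.

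The fibrillar collagens form the main load-bearing fibres of the ventricle. Col1a1, the alpha 1 chain of type I collagen, had signals of 22246, 17825, 23696, 26360.1 and 23535 in PE outflow, against 5804, 6966, 7988, 8658 and 6650.4 in vehicle outflow. The groups did not overlap, and the rise was 3.15-fold (log2 fold change 1.66 ± 0.18 SE, adjusted p = 9.36e-07). Its partner chain Col1a2 had 22903, 13719, 23750.2, 28906 and 24678 in PE outflow and 6299.5, 7134, 7381, 8151 and 6057 in vehicle outflow. All 5 PE arrays were again higher, with replicate 2 the lowest of them, and the rise was 3.17-fold (1.67 ± 0.18, adjusted p = 9.22e-07). The RefSeq promoter of Col1a2 is shown because type I collagen is the main fibre of scar tissue. It spans 250 bases before to 50 after the start (GRCr8, chr4:33518307-33518606, plus strand). Capitals mark 3 motifs, read on both strands: the TATA box TATAAA, the CCAAT box, whose letters are its name, and the SMAD-binding motif CAGAC.
Col1a2: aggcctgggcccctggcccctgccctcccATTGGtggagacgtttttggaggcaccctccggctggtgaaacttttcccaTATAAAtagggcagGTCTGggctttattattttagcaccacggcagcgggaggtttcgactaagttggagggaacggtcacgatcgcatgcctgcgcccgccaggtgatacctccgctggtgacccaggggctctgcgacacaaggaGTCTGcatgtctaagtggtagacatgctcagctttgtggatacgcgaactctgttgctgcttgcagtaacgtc
This window held 1 match to TATAAA, 1 to the CCAAT box and 2 to CAGAC, by letters alone. The TATAAA match lies far before the start, and whether it serves as a TATA box there was not tested. Of 33469 RefSeq promoter windows of that length, 14.2% held TATAAA, 37.5% the CCAAT box and 50.1% CAGAC. A window was found for 32 of the 41 collagen genes, 35 windows in all, of which 4 held TATAAA, 10 the CCAAT box and 14 CAGAC.

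Col3a1, the only chain of type III collagen, had 32293, 40488, 34708, 39360.2 and 33449 in PE outflow, against 18619.8, 18475, 20610.2, 21437 and 15573 in vehicle outflow. Here PE outflow replicate 2 was the highest array of its group. The rise was 1.91-fold (0.93 ± 0.12, adjusted p = 5.72e-06). Type V collagen is built into type I fibrils and limits their width. Its chain Col5a2 had 9325, 5942, 10301, 11506 and 13030.4 in PE outflow and 2602, 2722, 2638, 3411 and 2158 in vehicle outflow, a rise of 3.61-fold (1.85 ± 0.17, adjusted p = 2.4e-07). Col5a1 had 2765, 2250.1, 3228, 3868 and 3120.2 in PE outflow and 791, 981, 1000.5, 1038 and 935 in vehicle outflow, a rise of 3.14-fold (1.65 ± 0.15, adjusted p = 2.24e-07). Neither gene's groups overlapped. Col5a3 rose 2.97-fold (1.57 ± 0.31), with 968 to 2135 in PE outflow and 291 to 628 in vehicle outflow.

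Col24a1, a fibrillar collagen known from bone, was the exception. It had 245, 289, 147, 163 and 172 in PE outflow, against 436, 308, 296, 316 and 212 in vehicle outflow. The groups overlapped, and the gene fell by 0.60 on the log2 scale (SE 0.18, adjusted p = 0.0128). Fitting only the outflow groups ended that call. Col27a1, the remaining fibrillar chain measured, had 63.4 to 301 in PE outflow and 42.7 to 163 in vehicle outflow and was not called (adjusted p = 0.623).

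**Figure D2:**
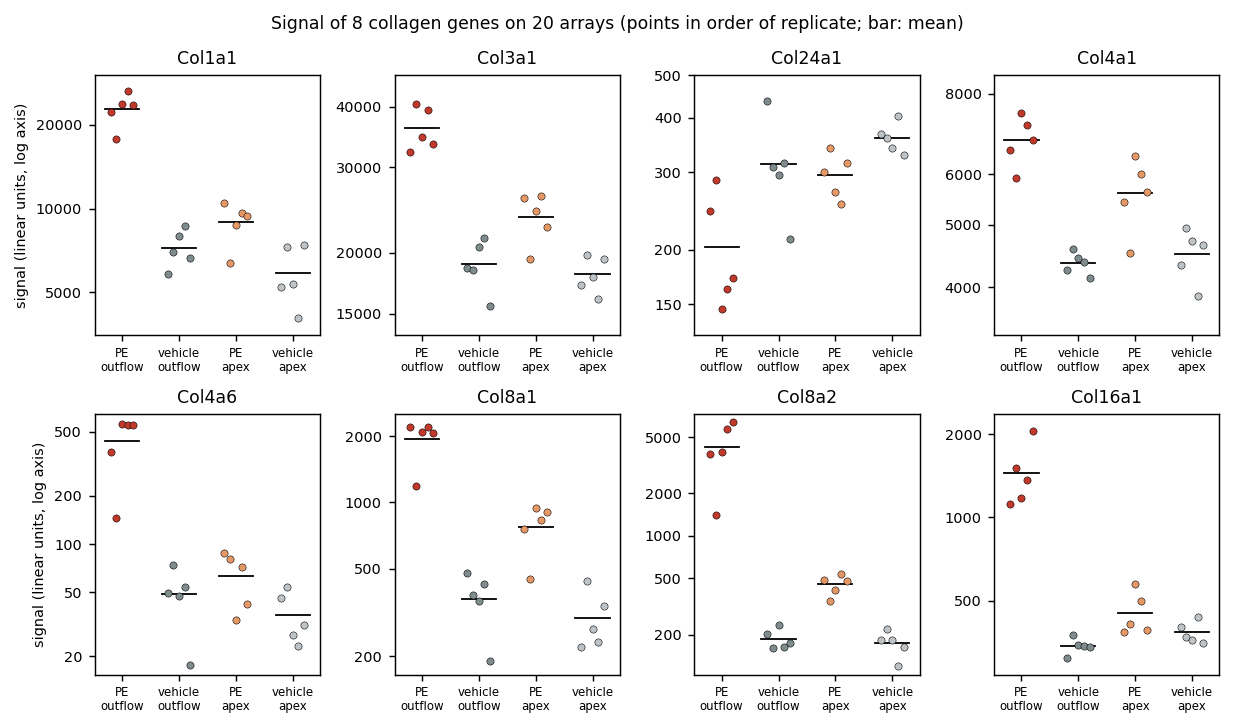
Signal (y axis, log scale) of 8 collagen genes in 4 groups (x axis), with 1 point per array in the order of replicate number and a bar at the group mean. For Col1a1, Col3a1, Col4a1, Col4a6, Col8a1, Col8a2 and Col16a1 all 5 PE outflow arrays lie above the 5 vehicle outflow arrays, and Col24a1 is lower in PE outflow with overlap.

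Among basement membrane collagens, the chains of type IV are encoded in head-to-head pairs. In RefSeq (GRCr8) the starts of Col4a1 and Col4a2 on chromosome 16 lie 77 bases apart, so that their promoter windows share 176 bases. The starts of Col4a5 and Col4a6 on the X chromosome lie 1415 bases apart, and their windows share 0 bases. The windows of Col4a1 (chr16:84885347-84885646, plus strand), Col4a5 (chrX:109907109-109907408, plus strand) and Col4a6 (chrX:109905895-109906194, minus strand) are shown because the genes of each pair are read outward from a shared region. Capitals mark the motifs named above and the GC box GGGCGG, on both strands.
Col4a1: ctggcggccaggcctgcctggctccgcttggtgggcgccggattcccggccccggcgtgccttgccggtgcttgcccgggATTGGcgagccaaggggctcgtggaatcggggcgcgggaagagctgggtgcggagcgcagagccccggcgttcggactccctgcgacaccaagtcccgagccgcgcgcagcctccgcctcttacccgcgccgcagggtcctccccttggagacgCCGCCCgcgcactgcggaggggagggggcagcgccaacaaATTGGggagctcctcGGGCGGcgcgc
Col4a5: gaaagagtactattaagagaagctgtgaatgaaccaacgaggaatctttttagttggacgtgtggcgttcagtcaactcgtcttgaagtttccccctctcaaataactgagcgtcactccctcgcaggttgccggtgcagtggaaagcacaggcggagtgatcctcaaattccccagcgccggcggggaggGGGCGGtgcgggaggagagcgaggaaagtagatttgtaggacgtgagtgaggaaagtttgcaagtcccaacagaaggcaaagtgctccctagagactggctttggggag
Col4a6: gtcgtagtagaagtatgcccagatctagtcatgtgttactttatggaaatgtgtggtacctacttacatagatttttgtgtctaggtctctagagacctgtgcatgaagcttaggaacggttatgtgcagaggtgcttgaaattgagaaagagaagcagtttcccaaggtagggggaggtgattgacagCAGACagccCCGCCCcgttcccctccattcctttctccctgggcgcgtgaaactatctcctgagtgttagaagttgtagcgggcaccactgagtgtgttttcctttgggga
GGGCGG occurred in 33.1% of all 33469 windows and in 19 of the 35 collagen windows.

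Col4a1, with Col4a2 the common pair of basement membranes, had 6533, 5915, 7458, 7159 and 6787 in PE outflow and 4255, 4585, 4442, 4378 and 4129 in vehicle outflow. The groups did not overlap, and the rise was 1.55-fold (0.63 ± 0.11, adjusted p = 0.000135). Col4a2 rose 1.39-fold (0.47 ± 0.13, adjusted p = 0.00782), with 4291 to 5619 in PE outflow and 2814 to 3970.4 in vehicle outflow. The X-linked pair also rose. Col4a5 had 6240.0, 5755, 8262, 9175 and 9374 in PE outflow and 2163, 2703, 2427, 2154 and 1579.9 in vehicle outflow, a rise of 3.49-fold (1.80 ± 0.16, adjusted p = 1.25e-07). Col4a6, known from smooth muscle basement membranes, had 373, 146, 563, 554 and 552 in PE outflow and 49.3, 73.9, 47.6, 54.0 and 17.7 in vehicle outflow. That is a rise of 6.69-fold (2.74 ± 0.33, adjusted p = 3.47e-06), with PE replicate 2 the lowest array of its group. With the probe set chosen on vehicle arrays, the Col4a6 value was 2.09 (adjusted p = 0.000381). Of 4 smooth muscle markers, Myh11, Cnn1 and Tagln were higher in PE outflow (26.3% of all genes) and Smtn was lower (18% of all genes). Their summed signal was 10506 to 25097 in PE outflow and 4171 to 6295 in vehicle outflow, and their part in the Col4a6 values was not tested. The difference in fold change between these pairs was not tested either.

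Col18a1, whose C-terminal fragment is endostatin, had 975, 1646, 1557, 1635 and 2104 in PE outflow and 291, 306, 383, 342 and 344 in vehicle outflow. It rose 4.47-fold (2.16 ± 0.18, adjusted p = 8.33e-08), without overlap. The related Col15a1 rose 1.71-fold (0.78 ± 0.12), with 6510.3 to 9234 in PE outflow and 4243 to 4910.1 in vehicle outflow. Col7a1, the anchoring fibril collagen of skin, was dim. It had 35.4, 132, 80.2, 65.3 and 52.5 in PE outflow and 39.2, 47.3, 10.4, 6.49 and 23.8 in vehicle outflow, and the groups overlapped. The fitted rise was 2.18-fold (1.13 ± 0.39, adjusted p = 0.0314), and the call held in 11 of 22 other settings. Leaving out PE outflow replicate 2, 3 or 4 or vehicle outflow replicate 3, 4 or 5 ended it, with log2 values of 0.92, 1.08, 1.14, 0.99, 0.93 and 1.14 in that order. Col4a4, a chain of the kidney filter, had 25.9 to 61.9 in PE outflow and 30.1 to 58.9 in vehicle outflow and was not called (adjusted p = 0.581).

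The largest fold change of the 41 genes in outflow was that of a network collagen. Col8a2, which with Col8a1 forms the hexagonal lattice of type VIII collagen in vessel walls and the cornea, had 3776, 1402, 3923, 5704 and 6346 in PE outflow. Vehicle outflow arrays had 203, 161, 234, 164 and 175. The lowest PE array, replicate 2, was well above the highest vehicle array, and the rise was 18.7-fold (4.23 ± 0.29, adjusted p = 1.28e-08). Col8a1 had 2196, 1193, 2086, 2189 and 2059 in PE outflow and 476, 378, 355, 427 and 189.8 in vehicle outflow, a rise of 5.23-fold (2.39 ± 0.26, adjusted p = 9.93e-07). The promoters of this pair are shown because both chains rose in outflow and had the 2 highest log2 fold changes of the collagens in the apex. Col8a2 lies at chr5:143870519-143870818 and Col8a1 at chr11:56246532-56246831 (GRCr8, both plus strand), with capitals as before.
Col8a2: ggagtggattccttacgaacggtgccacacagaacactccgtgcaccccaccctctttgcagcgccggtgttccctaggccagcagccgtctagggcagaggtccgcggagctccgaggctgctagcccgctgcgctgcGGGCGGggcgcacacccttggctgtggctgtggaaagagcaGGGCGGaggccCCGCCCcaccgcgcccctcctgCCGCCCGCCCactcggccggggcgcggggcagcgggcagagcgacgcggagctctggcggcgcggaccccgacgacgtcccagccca
Col8a1: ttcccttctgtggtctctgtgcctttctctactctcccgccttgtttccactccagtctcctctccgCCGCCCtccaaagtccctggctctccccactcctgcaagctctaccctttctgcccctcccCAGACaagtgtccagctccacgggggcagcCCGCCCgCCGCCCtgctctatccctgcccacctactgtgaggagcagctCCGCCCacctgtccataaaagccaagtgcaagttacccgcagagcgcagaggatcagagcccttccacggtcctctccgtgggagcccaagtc
Matches to GGGCGG numbered 5 for Col8a2 and 4 for Col8a1.

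Type VI collagen forms beaded filaments next to cell surfaces. Col6a1 had 5816, 6149, 7561, 8057 and 8582 in PE outflow and 2244, 2875, 2816, 2818 and 3016 in vehicle outflow, a rise of 2.60-fold (1.38 ± 0.13, adjusted p = 3.59e-07). Col6a3 had 9522, 8290.3, 9873, 12265 and 12220.5 in PE outflow and 3750.4, 4157, 4314, 4603 and 3642 in vehicle outflow, a rise of 2.52-fold (1.34 ± 0.13, adjusted p = 3.28e-07). Neither gene's groups overlapped. With its probe sets averaged, Col6a3 was called at 0.71 (adjusted p = 0.00891). Col6a2 rose 1.86-fold (0.90 ± 0.13), with 3566 to 5711 in PE outflow and 2291 to 3266 in vehicle outflow. Col6a6, which can stand in for Col6a3, rose 2.29-fold (1.19 ± 0.15), with 498 to 730.4 in PE outflow and 226 to 294 in vehicle outflow. The dim Col6a5 had 17.0 to 76.3 in PE outflow and 2.72 to 67.3 in vehicle outflow and was not called (adjusted p = 0.0943).

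FACIT collagens sit on fibril surfaces and link them to other matrix. Col12a1, found in tissues under tension, had 347, 402, 401, 449 and 459 in PE outflow and 68.0, 85.9, 85.1, 108 and 92.0 in vehicle outflow, a rise of 4.13-fold (2.05 ± 0.21, adjusted p = 7.47e-07). With its probe sets averaged, Col12a1 was called at 0.95 (adjusted p = 0.000653). Col16a1 had 1116, 1513, 1173, 1362 and 2064 in PE outflow and 310.1, 375, 344, 343 and 339 in vehicle outflow. It rose 3.99-fold (2.00 ± 0.15, adjusted p = 4.27e-08), with replicate 5 the highest PE array. Col14a1, a fibril surface collagen of skin and tendon, had 5285, 3652, 5229, 6664 and 6739 in PE outflow and 1532, 1936, 1927, 1879.6 and 1788 in vehicle outflow, a rise of 2.97-fold (1.57 ± 0.16). PE outflow and vehicle outflow arrays were apart for all 3 genes. Col22a1, of tissue junctions, was dim, with 79.0, 104, 59.5, 63.3 and 74.4 in PE outflow and 42.6, 51.7, 27.4, 48.9 and 46.5 in vehicle outflow. Its rise of 1.55-fold (0.63 ± 0.21, adjusted p = 0.0267) was called in 15 of 22 other settings, and leaving out PE outflow replicate 2 or vehicle outflow replicate 3 ended the call (0.53 and 0.52). Col19a1 (2.76 to 73.5 in PE outflow and 6.64 to 16.4 in vehicle outflow) and Col20a1 (6.29 to 67.9 in PE outflow and 2.50 to 31.6 in vehicle outflow) were not called.

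Among the cartilage collagens, the PE outflow arrays were unequal. Col2a1, the fibrillar collagen of cartilage, had on its representative probe set 2596, 66.7, 2222, 205 and 357 in PE outflow, against 27.7, 3.38, 28.9, 17.4 and 42.6 in vehicle outflow. All 5 PE arrays exceeded all vehicle arrays, but replicates 1 and 3 stood far above the other PE arrays. The fitted log2 value was 3.81 ± 0.73 (adjusted p = 0.000359), but it rests on the choice of probe set. A second set averaged 71.7 in PE outflow and 55.1 in vehicle outflow, so that the representative set was the brighter of them in PE outflow and the dimmer in vehicle outflow. Chosen on vehicle arrays, that second set was not called (0.41, adjusted p = 0.414). With the 3 sets averaged the gene was called at 1.51 (adjusted p = 0.000422). For the representative set the log2 value was 4.47 without PE outflow replicate 2, 6.01 with replicates 1 and 3 as the PE outflow group, and 4.64 or 2.83 with 1 or 64 added to the signal. Col10a1, of hypertrophic cartilage, had 811, 15.2, 497, 122 and 129 in PE outflow and 63.8, 33.7, 20.7, 61.8 and 24.9 in vehicle outflow. Replicate 2 lay under all vehicle arrays while replicates 1 and 3 were again highest (1.83 ± 0.59, adjusted p = 0.0211). Without PE outflow replicate 1, PE outflow replicate 3 or vehicle outflow replicate 3 the Col10a1 call was lost (1.31, 1.48 and 1.69), while without PE outflow replicate 2 it was 2.49.

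Col9a3, a chain of the cartilage FACIT collagen type IX, was more even, with 407, 343, 498, 247 and 344 in PE outflow and 54.7, 28.9, 51.1, 46.5 and 46.3 in vehicle outflow. Its groups were well apart (6.17-fold, 2.63 ± 0.21, adjusted p = 7.19e-08). Col11a1, which nucleates cartilage fibrils, had 414, 117, 311, 231 and 176 in PE outflow and 28.9, 115, 57.0, 5.51 and 61.0 in vehicle outflow, a rise of 4.16-fold (2.06 ± 0.41, adjusted p = 0.000531). The lowest PE array and the highest vehicle array nearly met. Col9a1 had 99.7, 28.1, 106, 8.44 and 20.1 in PE outflow and 3.09, 3.79, 2.78, 4.73 and 22.1 in vehicle outflow. Its groups overlapped, and it was called (1.32 ± 0.42, adjusted p = 0.0188) unless PE outflow replicate 1 or 3 was left out (1.06 and 1.04). Its log2 value ran over 0.62 to 2.53 between settings, with 64 and 1 added to the signal at the ends. Like Col2a1 and Col10a1, the genes Col9a3, Col11a1 and Col9a1 were highest on PE outflow replicates 1 and 3. Col9a2 (36.3 to 125 in PE outflow and 73.5 to 95.5 in vehicle outflow) and Col11a2 (51.9 to 131 in PE outflow and 19.6 to 91.5 in vehicle outflow) were not called.

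**Figure D3:**
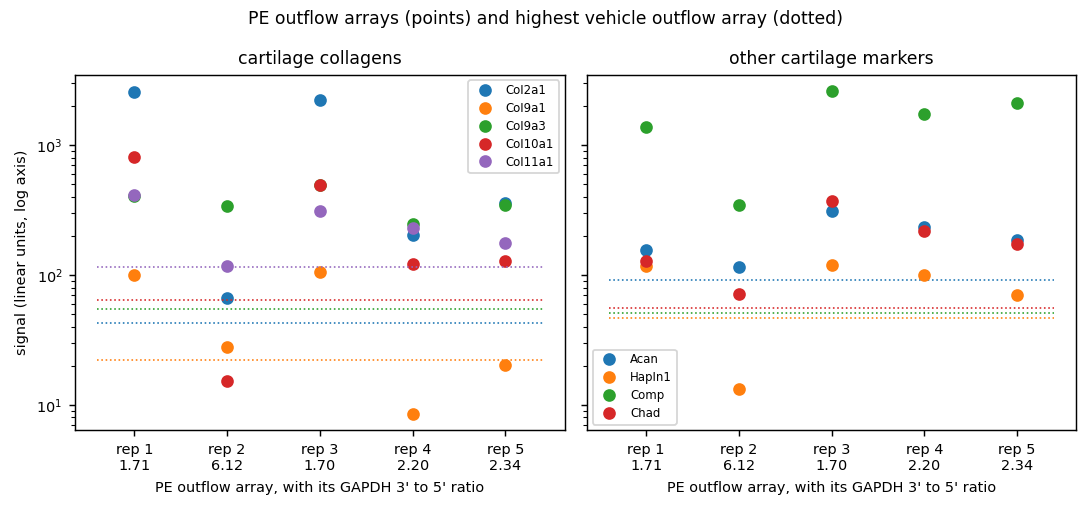
Signal (y axis, log scale) of cartilage collagens and other cartilage markers on the 5 PE outflow arrays (x axis, with the GAPDH 3' to 5' ratio of each array). Dotted lines give the highest vehicle outflow array of the gene. Col2a1, Col9a1, Col9a3, Col10a1 and Col11a1 are all highest on replicates 1 and 3, whose ratios are 1.71 and 1.70. Hapln1 is also highest on these arrays, while Comp, Acan and Chad are lower on replicate 1 than on replicates 3, 4 and 5.

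Other cartilage markers were read beside these values. Of 6 measured, 4 were higher in PE outflow (Comp, Chad, Acan and Hapln1, against 26.3% of all genes) and 2 were not called (Matn1 and Snorc). Comp, a matrix protein of cartilage and tendon, averaged 1649 ± 863 in PE outflow and 35.8 ± 12.8 in vehicle outflow (SD, n = 5 each), with a log2 fold change of 4.78 ± 0.39. Acan, the core protein of cartilage proteoglycan, averaged 200.2 ± 75.0 in PE outflow and 54.0 ± 30.0 in vehicle outflow (1.71 ± 0.45). The summed signal of the 6 markers was 610.2 to 3578 in PE outflow, 129.9 to 229 in PE apex, 153 to 303 in vehicle outflow and 149 to 297 in vehicle apex. Comp alone made up most of that sum on each PE outflow array, with 1388, 347, 2638, 1740 and 2130 in replicate order. None of the markers was at 0 on any array, which does not show that they were detected, since detection calls were not used. The part of cartilage tissue in the collagen values was not tested, nor was that of the GAPDH ratio, which among PE outflow arrays was lowest on replicates 1 and 3. In the tendon and valve list, Tnmd and Fmod were higher (26.3% of all genes) and the tendon factor Scx was lower (18% of all genes), and the summed signal was 2046 to 4834 in PE outflow and 1388 to 1745 in vehicle outflow.

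Of the 5 collagens outside these classes, Col17a1, a transmembrane collagen of epithelial anchoring, was called. It had 137, 81.2, 140.4, 172 and 224 in PE outflow and 39.9, 63.1, 70.4, 57.3 and 45.2 in vehicle outflow, a rise of 2.28-fold (1.19 ± 0.24, adjusted p = 0.000516) without overlap. Col13a1, also a transmembrane chain, had 72.6, 97.6, 35.4, 68.7 and 63.8 in PE outflow and 31.1, 37.0, 65.7, 27.5 and 14.4 in vehicle outflow (adjusted p = 0.129). Col23a1 had 82.4, 169.8, 66.6, 109.7 and 55.2 in PE outflow and 88.0, 82.4, 18.0, 98.7 and 61.8 in vehicle outflow (adjusted p = 0.297). Both overlapped and were not called. Col25a1 had 16.3, 46.6, 24.3, 14.1 and 28.6 in PE outflow and 5.79, 19.6, 25.8, 7.34 and 13.7 in vehicle outflow (adjusted p = 0.234), and Col26a1 had 46.8 to 145 in PE outflow and 53.6 to 109.5 in vehicle outflow (adjusted p = 0.895). Neither was called.

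Each class was also averaged on every array, as the log2 difference from the vehicle mean of the region. In all 6 classes the 5 PE outflow arrays were above the 5 vehicle outflow arrays. The fibrillar class was 1.05 to 1.20 higher on the PE outflow arrays, and the basement membrane class 0.92 to 1.39. The narrow fibrillar range averages over opposite orders of its genes. Replicate 2, at 1.20, was the lowest PE outflow array for Col1a1, Col1a2, Col5a1 and Col5a2. It was the highest for Col3a1, Col5a3, Col24a1 and Col27a1, of which Col27a1 was not called and Col24a1 fell. The network class was at 1.21 on PE outflow replicate 2 and 1.77 to 2.05 on the others. Cartilage collagens were at 2.60 on replicate 1 and 2.63 on replicate 3, and at 0.87 to 1.23 on replicates 2, 4 and 5, values that include the representative Col2a1 set. PE outflow replicate 2, with the highest GAPDH ratio and cardiomyocyte marker sum of its group, was the lowest of it for 17 of the 29 risen collagens and for 1512 of the 3741 genes that rose in all. Without it, 28 collagen genes were called higher and 1 lower. With the log2 GAPDH ratio as a covariate 27 were higher and 1 lower, and with replicates 1 and 3 as the PE outflow group 26 were higher and 1 lower.

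**Figure D4:**
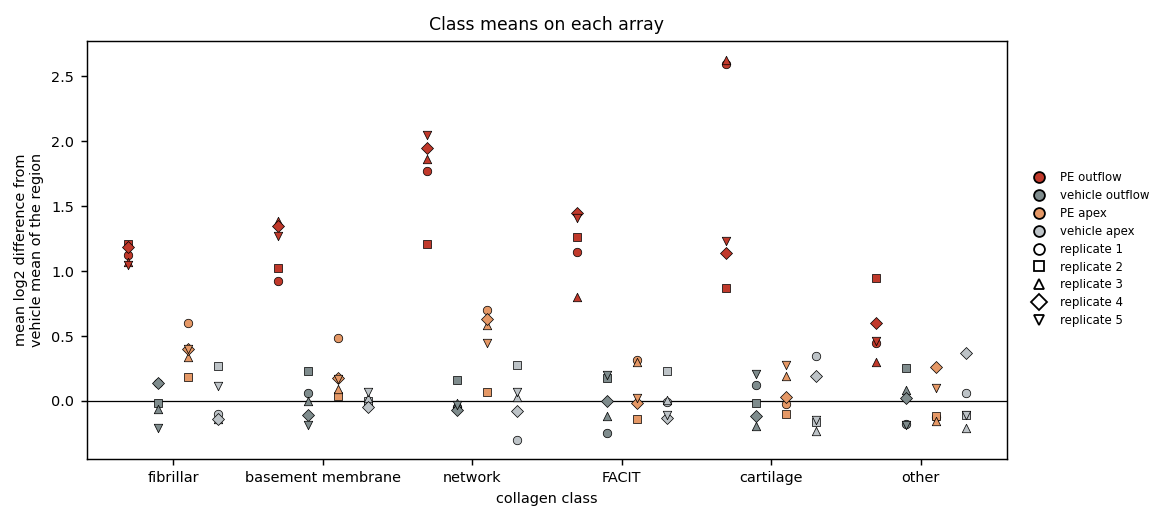
Mean over the genes of a collagen class (x axis) of the log2 difference from the vehicle mean of the same region (y axis), 1 point per array, coloured by group and shaped by replicate. The cartilage class reads 2.60 and 2.63 for PE outflow replicates 1 and 3, while the fibrillar class spans 1.05 to 1.20 over all 5 PE outflow arrays. That fibrillar range hides single genes, since Col1a1, Col1a2, Col5a1 and Col5a2 are lowest and the other fibrillar genes highest on PE outflow replicate 2.

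Probe sets of the same gene mostly gave the same call. Of 58 probe sets, 40 were higher in PE outflow, 1 was lower and 17 were not called, against 19.6% higher and 14.9% lower of all probe sets. In 14 genes with several probe sets, the call was the same for all sets of 10 genes and differed in 4: Col2a1, Col6a3, Col11a1 and Col12a1. The second Col6a3 probe set had 449, 68.0, 311, 376 and 210.1 in PE outflow and 184, 276, 247, 237 and 202 in vehicle outflow, with a log2 fold change of 0.08 ± 0.34. Its PE arrays lay on both sides of the vehicle arrays. The other Col2a1 probe sets had 0.41 ± 0.35 and 0.30 ± 0.38, and the other Col12a1 sets 0.49 ± 0.43 and 0.32 ± 0.27, none of them called. For Col11a1 a second set was higher (2.80 ± 0.32), and another, with 0.450 to 14.2 in PE outflow and 3.20 to 22.6 in vehicle outflow, was not called (-0.40 ± 0.30). Which part of the transcript each set reads was not analysed here.

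**Figure D5:**
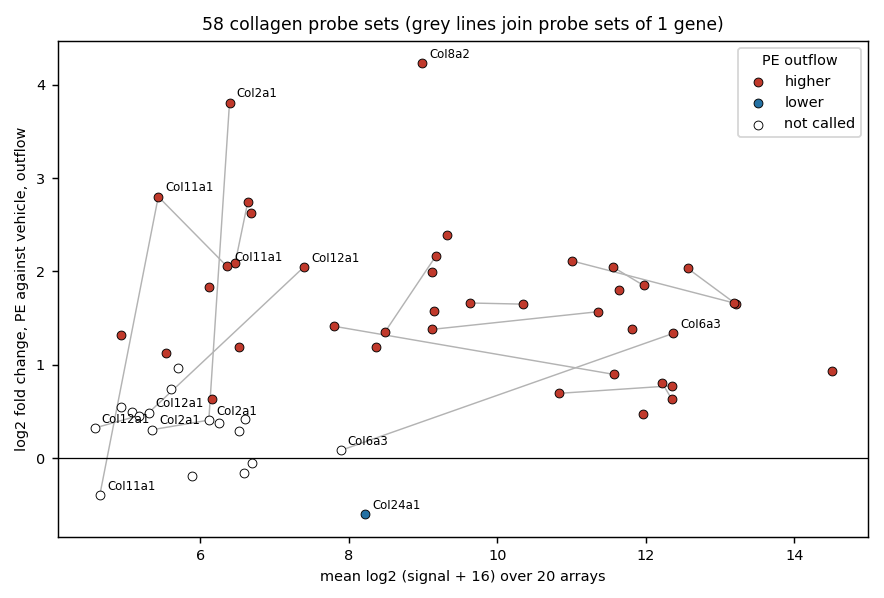
Log2 fold change of PE against vehicle in outflow (y axis) against the mean log2 of signal + 16 over 20 arrays (x axis) for 58 collagen probe sets, with grey lines joining the sets of a gene. Of these sets 40 were called higher, 1 lower and 17 not, and Col2a1, Col6a3, Col11a1 and Col12a1 have both called and uncalled sets.

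In the apex, no collagen gene passed the test. The limma model called 0 of 41 in either direction (0.0211% of all genes were called higher and 0% lower), while 13 had an unadjusted p under 0.05 (8.29% of all genes). The log2 fold change was positive for 28 of 41 genes (50.5% of all genes), with a median of 0.22, against 0.00 over all genes. The type VIII pair had the highest values. Col8a1 had 757, 448, 942, 831 and 901 in PE apex and 221, 441, 266, 232 and 338 in vehicle apex (1.33 ± 0.26, adjusted p = 0.0918). Col8a2 had 489, 346, 414, 532 and 479 in PE apex and 182, 219, 184, 119.8 and 163 in vehicle apex (1.31 ± 0.29, adjusted p = 0.160). All 5 PE apex arrays were above all vehicle apex arrays for both genes and for Col4a5, which makes 3 genes (2.19% of all genes). Leaving out PE apex replicate 2 brought Col8a1 past the threshold (1.51).

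The fibrillar chains of the apex were not called. Col1a1 had 10440.2, 6371, 8755, 9660.3 and 9376 in PE apex, against 5234, 7297, 5349, 4029 and 7389 in vehicle apex (0.62 ± 0.18, adjusted p = 0.346). Of the PE apex arrays, replicate 2 alone reached into the vehicle range. Col1a2 averaged 8559 ± 1303 in PE apex and 5788 ± 971 in vehicle apex (0.56 ± 0.18, adjusted p = 0.394). Col3a1 averaged 23711 ± 2811 in PE apex and 18057 ± 1539 in vehicle apex (0.39 ± 0.12, adjusted p = 0.375). A missed threshold does not show that the apex was without change. The model shares its variance over all 4 groups, so the apex errors and p-values also carry the spread of the PE outflow arrays. With only the apex groups fitted, 0 collagen genes were called. Among the type IV chains, the log2 fold change was 0.31 ± 0.11 for Col4a1, 0.32 ± 0.13 for Col4a2 and 0.36 ± 0.16 for Col4a5. The type VI chains Col6a1 and Col6a3 had 0.11 ± 0.13 and 0.15 ± 0.13. No cartilage collagen reached an unadjusted p of 0.05 in the apex, and Col9a3 averaged 65.6 ± 23.2 in PE apex and 46.6 ± 15.3 in vehicle apex (0.38 ± 0.21).

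The difference of the PE effect between regions was tested in the same model, as the PE effect in outflow minus that in apex. It shares the outflow and apex arrays with the comparisons above. It was positive for 37 of 41 genes (56.9% of all genes), and 20 were called with a larger effect in outflow (14.1% of all genes) and 0 with a smaller one (10.2% of all genes). The median difference was 1.06, against 0.10 over all genes. By class, 5 of 8 fibrillar, 4 of 8 basement membrane, 6 of 7 network, 3 of 6 FACIT, 2 of 7 cartilage and 0 of 5 other collagens were called. Col2a1, 1 of the 2 cartilage genes, lost its call with probe sets chosen on vehicle arrays (0.76, adjusted p = 0.325). Col8a2 differed by 2.92 ± 0.41 (adjusted p = 0.000274), Col18a1 by 1.80 ± 0.25 (adjusted p = 0.000274), Col16a1 by 1.78 ± 0.21 (adjusted p = 0.000101) and Col9a3 by 2.24 ± 0.30 (adjusted p = 0.000213). Both chains of type I passed, with 1.03 ± 0.25 for Col1a1 and 1.10 ± 0.25 for Col1a2. The X-linked type IV pair passed with 1.44 ± 0.22 for Col4a5 and 2.16 ± 0.47 for Col4a6, while Col4a1 (0.32 ± 0.15, adjusted p = 0.166) and Col4a2 (0.15 ± 0.18, adjusted p = 0.652) did not. Col3a1 passed with 0.54 ± 0.17 (adjusted p = 0.0296) and Col8a1 with 1.06 ± 0.36 (adjusted p = 0.0493). The Col3a1 call was lost without any 1 of PE outflow replicate 4, PE apex replicates 2 and 5, vehicle outflow replicate 5 and vehicle apex replicates 2 and 5 (0.47 to 0.53). The Col8a1 call was lost without any 1 of PE outflow replicates 1, 3, 4 and 5, PE apex replicates 1, 2, 4 and 5, vehicle outflow replicates 2, 3 and 5 and vehicle apex replicates 2, 3 and 5 (0.85 to 1.12).

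The regions were also compared within each treatment. In vehicle rats, 0 of 41 genes were called between outflow and apex by limma (0% of all genes in either direction), and 1 had an unadjusted p under 0.05 (3.14% of all genes). That gene was Col19a1, at 10.6 ± 3.59 in vehicle outflow and 37.8 ± 26.5 in vehicle apex. On 0 of the 41 genes were all vehicle outflow arrays above (0.295% of all genes) or below (0.429% of all genes) all vehicle apex arrays. Col1a1 averaged 7213 ± 1124 in vehicle outflow and 5859 ± 1449.9 in vehicle apex, and Col8a2 187 ± 30.7 in vehicle outflow and 173 ± 36.3 in vehicle apex. In PE rats, 26 genes were higher in outflow than in apex (22.3% of all genes) and Col24a1 was lower (15.5% of all genes). On 21 genes all 5 PE outflow arrays exceeded all 5 PE apex arrays (16.4% of all genes). Col8a2 averaged 4230.4 ± 1933 in PE outflow and 452 ± 72.9 in PE apex, which is 8.16-fold (3.03 ± 0.29). Col4a5 averaged 7761 ± 1673 in PE outflow and 2810.0 ± 329.8 in PE apex (1.44 ± 0.16), and Col1a1 22732 ± 3125 in PE outflow and 8920.4 ± 1549 in PE apex (1.36 ± 0.18). Col4a1 (0.28 ± 0.11, adjusted p = 0.0628) and Col4a2 (0.18 ± 0.13) were not called. These values are from the model without pairs. With outflow and apex arrays of the same replicate number paired by the replicate block, Col4a1 was called at 0.28 (adjusted p = 0.0493). So was Col9a1 at 1.11 (adjusted p = 0.04997, against 0.0556 without the block). Leaving out PE outflow replicate 2 or PE apex replicate 3 also brought Col4a1 past the threshold (0.33 for either). Among the 26 genes, Col2a1 lost its call with probe sets chosen on vehicle arrays (0.54, adjusted p = 0.281). Col13a1, not called against vehicle, was higher in PE outflow than in PE apex (1.11 ± 0.36, adjusted p = 0.0252). That call was lost without any 1 of PE outflow replicate 2 and PE apex replicates 2 and 3 (0.86 to 1.09), and the Col24a1 call (-0.55 ± 0.18) without any 1 of PE outflow replicates 3, 4 and 5 and PE apex replicates 2 and 5 (-0.52 to -0.45).

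Genes that make, bind and cut collagen were read beside the chains. Of 26 measured genes for collagen biosynthesis (hydroxylases, chaperones, procollagen proteinases and crosslinking enzymes), 24 were higher in PE outflow (26.3% of all genes), 0 were lower (18% of all genes) and 2 were not called, with a median log2 fold change of 0.82. Loxl1, which crosslinks elastin and collagen, averaged 5612 ± 1087 in PE outflow and 833 ± 191 in vehicle outflow (2.74 ± 0.19). P3h3, of the prolyl hydroxylase family, averaged 2352 ± 441 in PE outflow and 508 ± 101 in vehicle outflow (2.18 ± 0.17). Bmp1, the procollagen C-proteinase, rose by 1.73 ± 0.14 on the log2 scale, and its enhancer Pcolce by 2.08 ± 0.18. Of 5 measured collagen receptors, 3 were higher (26.3% of all genes): Itga11 (2.70 ± 0.33), Ddr2 (1.36 ± 0.15) and Itgb1 (0.53 ± 0.10). Ddr1 and Itga1 were not called. Itga1 varied widely within groups, with 107 to 1313 in PE outflow and 101 to 1837 in vehicle outflow, so its missed call does not show an unchanged level. Of 10 proteases and inhibitors that act on collagen breakdown, 7 were higher (26.3% of all genes) and Timp4 was lower (18% of all genes). Mmp2, a gelatinase, averaged 9031 ± 1518 in PE outflow and 3144 ± 299 in vehicle outflow. The inhibitor Timp1 (2.38 ± 0.26) and the collagen-cutting cathepsin Ctsk (2.16 ± 0.33) were higher too. In the apex, 0 genes of these 3 lists were called (0.0211% of all genes were higher and 0% lower). The difference between regions was called for 15 biosynthesis, 2 receptor and 6 protease or inhibitor genes, all with a larger PE effect in outflow (14.1% of all genes).

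Markers of cell types moved in outflow as well, where 26.3% of all genes were called higher and 18% lower. Of 8 fibroblast markers, 7 were higher (Fap, Dpt, Pi16 and Thy1 had the smallest p), with a summed signal of 86051 to 100100.0 in PE outflow and 40785 to 60904 in vehicle outflow, while Dcn was not called (0.05 ± 0.13). All 4 myofibroblast markers were higher (Ltbp2, Acta2, Postn and Cthrc1), summing to 11370.0 to 27371 in PE outflow and 1933 to 4512 in vehicle outflow. Of 7 cardiomyocyte markers 6 were lower. Their sum reached 356408 in PE outflow replicate 2, the rest of that group ran over 138815 to 184612, and the sum was 274938 to 335628 in vehicle outflow. Replicate 2 was thus above every vehicle outflow array and the other 4 below. Of 5 endothelial markers Tek was higher and Kdr lower, and the sum was 10756 to 14554 in PE outflow and 9542 to 12659.6 in vehicle outflow. All 6 macrophage markers were higher, with a sum of 5045 to 14504 in PE outflow and 3139.9 to 4001 in vehicle outflow. Both nerve and Schwann markers measured were higher, with 1139.8 to 1851 in PE outflow and 178 to 279 in vehicle outflow, and so were 3 of 4 adipocyte markers, with 2211 to 6489.6 in PE outflow and 631 to 1009 in vehicle outflow. None of these markers was called between PE apex and vehicle apex (0.0211% of all genes were higher and 0% lower). The part of these cell types in the collagen values was not tested.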

How the data were processed

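RNA of rat right ventricle was measured on 20 Affymetrix arrays, 5 in each of 4 groups. Per the labels, the deposited numbers are signal intensities, which were read as linear values, 1 for each probe set and array. No source used here names the software behind them. After 2% of values were trimmed at either end every array had a mean of 500.2, so the deposited intensities are scaled to a common level. Of 31099 probe sets, 57 controls served only to describe arrays. By the platform annotation, 20826 tested probe sets had 1 gene symbol, 436 had several and 9780 had none.

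With 16 added, signals were taken to log2. The model had 1 mean per group, used all 20 arrays and was fitted by limma 3.58.1 (lmFit and eBayes, R 4.3.3), with two-sided p-values adjusted by the Benjamini-Hochberg method over 31042 probe sets and a call at an adjusted p under 0.05. The script was tested on simulated data with equal spread in all 4 groups and no pairs, a setting that does not cover the wider spread of PE outflow. Errors are the SE of the model for log2 fold changes and the SD over 5 arrays for signals, and the number of arrays limits the precision. Any collagen gene may be named. Each array's value is given for up to 4 genes of a class with the largest change in outflow and for Col1a1, Col1a2, Col3a1, Col4a1, Col5a1 and Col6a1, and Col24a1 and Col9a1 were added after their values were seen. Other lists are named by up to 4 genes with the smallest p, and further genes where a count of uncalled or opposite members is small. The members and lists were chosen with earlier results of these data known.

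Replicate numbers were checked by correlating deviations from the group mean (12310 probe sets, average log2 signal over 8). Outflow and apex arrays of the same number correlated at 0.181 to 0.283 in PE rats and 0.181 to 0.276 in vehicle rats, each best with its own number. They were taken as pairs only in the replicate block, and the main model was fitted without pairs. The titles name no animals, so that arrays of 1 number come from 1 rat was inferred. PE and vehicle arrays of the same number were not paired (-0.283 to 0.103 in outflow). Promoter windows come from RefSeq (GRCr8). Alternatives were quantile normalization, centring, 1 or 64 added to the signal, a filter on dim probe sets, the replicate block, array weights, an intensity trend, averaged probe sets, only the groups compared, the GAPDH covariate leaving out arrays and, added after seeing the data, probe sets chosen on vehicle arrays.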

Additional observations from a re-analysis of the deposited data

Results flagged for a closer look

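The PE effect differed between regions for 20 collagen genes, by the test of the difference itself (limma, adjusted p under 0.05). The differences, as the log2 PE effect in outflow minus that in apex, were 3.80 for Col2a1, 2.92 for Col8a2, 2.24 for Col9a3, 2.16 for Col4a6, 1.80 for Col18a1, 1.78 for Col16a1, 1.77 for Col12a1, 1.48 for Col5a2, 1.44 for Col4a5, 1.27 for Col5a1 and 1.27 for Col6a1. Those of Col6a3 (1.19), Col14a1 (1.13), Col1a2 (1.10), Col6a6 (1.06), Col8a1 (1.06), Col1a1 (1.03), Col15a1 (0.79), Col6a2 (0.69) and Col3a1 (0.54) were also called. The Col2a1 value rests on 1 of its 3 probe sets: it was 1.63 with the sets averaged, and 0.76 and not called with the set chosen on vehicle arrays. With probe sets averaged, Col12a1 was at 0.85.

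A single array lay far from the other 4 of its group in 14 of 164 gene and group pairs, by a gap above 0.71 of the group's range on the log2 scale, where chance gives about 1 in 20. In PE outflow, replicate 2 was low for Col6a2 (3566), Col6a5 (17.0) and Col8a1 (1193). In PE apex, replicate 2 was low for Col1a2 (6354), Col5a2 (2926) and Col18a1 (432), and replicate 1 was high for Col7a1 (68.1) and Col20a1 (35.6). In vehicle outflow, replicate 1 was low for Col6a1 (2244), replicate 2 low for Col9a3 (28.9) and replicate 5 high for Col9a1 (22.1). In vehicle apex, replicate 2 was low for Col7a1 (3.68), replicate 1 high for Col9a1 (37.9) and replicate 4 high for Col9a2 (154).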

How the results depend on the processing

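Of 30 collagen genes called in outflow, 23 were called under every alternative in which they were tested, and the count was 27 to 31 with 1 array left out and 24 to 30 under the other settings. The count for the difference between regions (20) was 18 to 23 with 1 array left out and 17 to 21 under the other settings, that of outflow against apex in PE rats (27) was 25 to 28 with 1 array left out and 23 to 29 under the other settings, and in vehicle rats it was 0 throughout. In the apex, 0 genes were called, but 1 with 64 added to the signal, 1 without the 40% dimmest probe sets, 1 with an intensity trend and robust variances, 1 with averaged probe sets, 2 with array weights, and 0 to 1 with 1 array left out. Those genes were Col8a1 and, with array weights, Col8a2. The replicate block for the rat (consensus correlation 0.0651) gave 30 calls in outflow, 0 in apex, 20 for the difference, 29 in PE rats and 0 in vehicle rats, which moved no count by over 1.5 times, and the block added Col4a1 and Col9a1 in PE rats and changed no other call. In outflow, calls were lost in some settings for Col7a1, Col22a1, Col10a1, Col9a1, Col4a2, Col24a1 and Col2a1 (probe sets chosen on vehicle arrays, 0.41). For Col4a2 these were centring on the median (0.34), replicates 1 and 3 as the PE outflow group (0.45) and the GAPDH covariate (0.36). For the difference they were Col3a1 (range 0.43 to 0.83), Col8a1 (0.85 to 1.35), Col6a2 (centring, 0.58), Col6a3 (averaged probe sets, 0.51) and Col2a1 (0.76). Between outflow and apex in PE rats, calls were lost in some settings for Col2a1, Col13a1 and Col24a1. This also held for Col17a1 (called in 19 of 23 other settings), Col7a1 (20 of 22) and Col10a1 (21 of 22). Ranges in outflow that moved a called fold by over 1.5 times were 2.07 to 3.36 for Col4a6, 1.96 to 2.98 for Col9a3, 1.41 to 2.67 for Col11a1 and 1.31 to 3.59 for Col10a1. Such ranges were also 0.95 to 2.22 for Col12a1, 0.71 to 1.62 for Col6a3, 0.41 to 6.01 for Col2a1 and 0.62 to 2.53 for Col9a1. For the difference they were 2.73 to 3.51 for Col8a2, 1.74 to 2.80 for Col4a6, 0.85 to 1.94 for Col12a1, 0.51 to 1.45 for Col6a3 and 0.76 to 6.00 for Col2a1. No called gene changed sign under these settings, and the cause of the lost calls was not tested. The difference between regions could not be fitted on the compared groups alone, since it uses all 4. Detection calls were not used here, so the 13 collagens under the lowest array median have no stated background, and their fold changes are the least certain.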
